A study of Mus musculus with 6 samples.

Results

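The cholesterol synthesis genes examined here were 26 genes, 18 that encode enzymes of the pathway from acetyl-CoA to cholesterol and 8 that encode its regulators and sterol transporters, in rib cages of mouse embryos at 16.5 dpc. They were matched by symbol among the 55487 gene IDs of the count table. All 26 were found, and all 26 were among the 26596 genes tested, those with a sum of 10 counts or more. RNA-Seq was run on whole rib cages of 3 control embryos (E420, E434 and E435), labelled wild type, and of 3 embryos (E423, E433 and E440) labelled Col2-cre;Foxc1-/-;Foxc2-/-. In these mutants the Cre recombinase is driven by Col2 regulatory sequence, so that floxed Foxc1 and Foxc2, which encode forkhead transcription factors, are deleted in chondrocyte progenitors and not in every cell of the rib cage. According to the methods, the males of the cross carried the Cre and 1 deleted allele of each gene, the females were homozygous for the floxed alleles, the background was mixed, and the embryos compared were littermates. Rib cages were freed of connective tissue by dissection. The labels do not say which embryos shared a litter. Values of single libraries are always given in the order E420, E434, E435 for controls and E423, E433, E440 for mutants.

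Cells make cholesterol from acetyl-CoA through mevalonate and the isoprenoid farnesyl diphosphate. A pair of farnesyl units is joined to squalene, squalene is closed to lanosterol, and a series of demethylations, reductions and a double bond shift leads to cholesterol. When sterols are scarce, the protein Scap carries the membrane-bound factors Srebf1 and Srebf2 to the Golgi, where they are cut and released to the nucleus to activate genes of sterol and fatty acid synthesis. When sterols are plentiful, Insig1 and Insig2 hold Scap in the endoplasmic reticulum. Skin makes much of its own cholesterol for the barrier, and fat cells use the same family of factors for lipid synthesis, so levels of Krt5, a keratin of basal keratinocytes, and of Adipoq, a hormone gene of fat cells, are given beside the results.

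The libraries held between 37853988 and 47794799 counts, and 3 counts corresponded to between 0.0628 and 0.0793 CPM. This unit gives counts relative to library size, here scaled by TMM, a method that corrects for the makeup of each library. Foxc1 was lower in every mutant, at 3.56 to 9.61 CPM against 23.1 to 36.9 CPM in the controls, and Foxc2 at 0.649 to 1.14 CPM against 1.99 to 4.83 CPM. Control E434 and mutant E433 stood apart from the other libraries of their groups. Over RSEM expected counts, which count fragments, the chi-square per degree of freedom between libraries of a group was 2.35 for E423 and E440 and 5.89 for E420 and E435, but between 95.02 and 138 for the pairs that held E434 or E433. Counting noise alone gives a value near 1, so E423 and E440, which the labels number as separate embryos, were kept as separate samples although they differed little. Whether they came from separate animals was not tested, and p-values measure the spread between these libraries only. Summed over a list of 10 chondrocyte markers, the level was 22151 CPM in E434 and 7907 CPM in E433, whereas elsewhere it was 392 to 1289 CPM, and these 10 genes all had E434 and E433 as their highest libraries. Summed over 12 keratinocyte markers, it was 23.3 CPM in E434 and 3524 CPM in E433, with 6226 to 28561 CPM elsewhere. None of those 12 markers was at 0 in any library. Krt5 itself was at 375, 0.640 and 392 CPM in the controls and at 900, 193 and 897 CPM in the mutants. Adipoq was at 0.458, 0.0882 and 0.371 CPM in the controls and at 50.3, 7.19 and 53.2 CPM in the mutants. The summed level of the 10 adipocyte markers ran from 162 to 210 CPM in controls and from 262 to 803 CPM in mutants, and Lep, Retn and Cfd of that list were at 0 in at least 1 library. A list of 8 hepatocyte markers summed to 774 CPM in E433 against 58.4 to 88.7 CPM elsewhere.

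The synthesis enzymes as a group had about the same level in mutants and controls. Their summed level was 818, 586 and 826 CPM for the controls and 820, 594 and 815 CPM for the mutants, or 743 ± 136 CPM in controls and 743 ± 129 CPM in mutants (SD, n = 3 each). The low libraries were E434 among the controls and E433 among the mutants, and the other 4 lay from 815 to 826 CPM. These sums include Dhcr7, at 64.2 and 61.0 CPM in mutants E423 and E440 against 26.9 and 25.04 CPM in controls E420 and E435. The 8 regulators and transporters summed to between 521 and 548 CPM in controls and between 503 and 529 CPM in mutants, without a drop of that kind in E434 or E433.

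**Figure D1:**
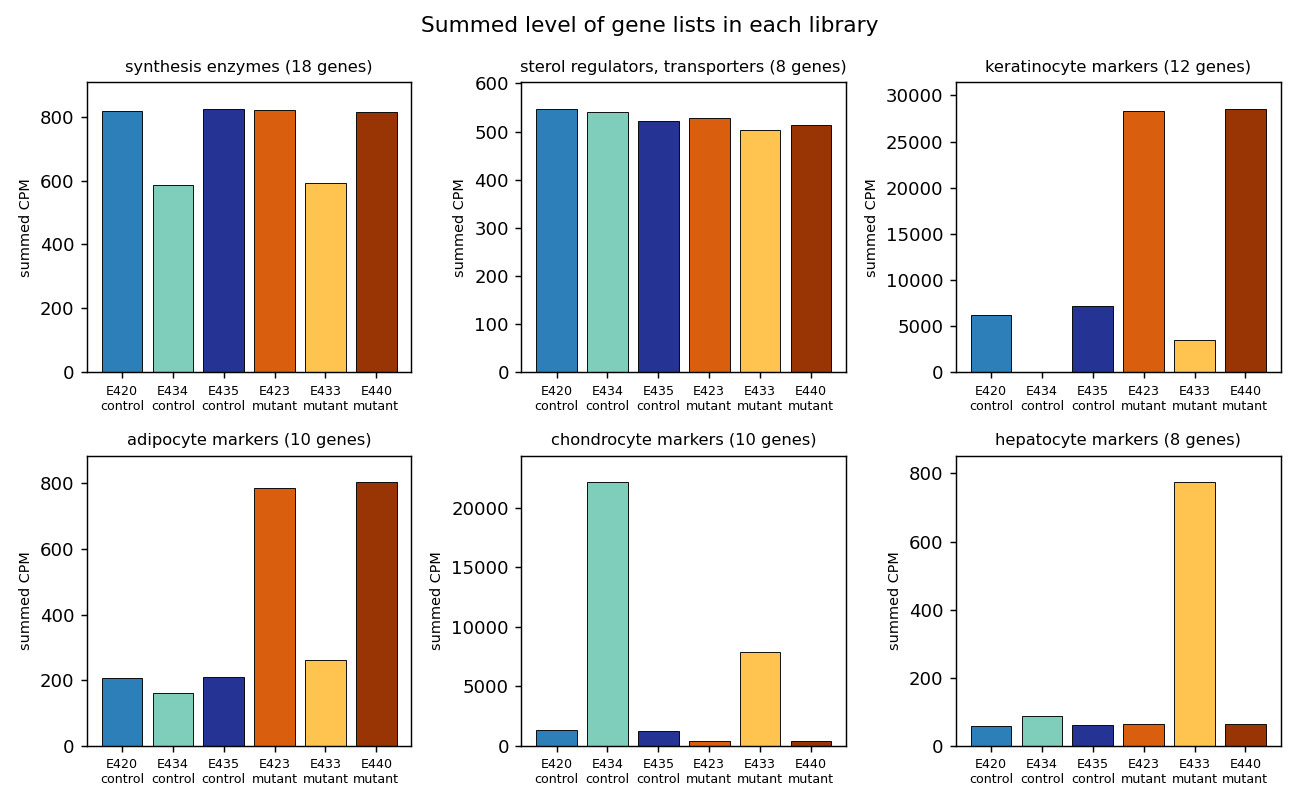
Summed level in CPM (vertical axes, each from 0) of 6 gene lists in each library, with 1 bar per library. The bars of the 18 synthesis enzymes are low in E434 (586 CPM) and E433 (594 CPM) and near 820 CPM elsewhere. Keratinocyte markers are also lowest in these libraries, and chondrocyte markers are highest in them.

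No member passed an adjusted p-value of 0.1 between mutants and controls by edgeR's quasi-likelihood test with Benjamini-Hochberg adjustment over all genes, where 0.0902% of all genes tested passed. Adjusted p-values of the 26 ran from 0.390 to 0.995 by edgeR. At an unadjusted edgeR p under 0.05, Insig1 was lower in mutants (4.7% of all genes were lower at this limit), and Dhcr7 and Srebf1 were higher (5.9% of all genes were higher). The median log2 fold change was -0.05 over the 26 members, -0.00 over the enzymes and -0.09 over the regulators and transporters, beside 0.01 over all genes tested. Insig1 was the only member whose CPM values did not overlap between the groups, a state that 8.21% of all genes showed with mutants lower and 6.81% with mutants higher. DESeq2's Wald test called Dhcr7 alone among the members on the counts, where it called 2.15% of all genes higher and 1.42% lower. The study kept genes called by DESeq2 on both sets of counts, and 0 members met that rule.

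The most regular feature of the members was the order of the libraries. In 17 of the 18 enzymes the lowest libraries were control E434 and mutant E433, in either order, an arrangement found in 16.4% of all genes tested. Within the controls, E434 differed from the mean of E420 and E435 by a median of -0.50 on the log2 scale over the 18 enzymes (range -0.84 to 0.11), against -0.01 over all genes. Within the mutants, E433 differed from the mean of E423 and E440 by a median of -0.46 (range -1.53 to -0.12), against 0.01 over all genes. All 18 enzymes were lower in E433 than in the mean of the other mutants, and 17 were lower in E434 than in the mean of the other controls, where 49.3% and 51.2% of all genes were. Between E433 and E434 themselves the enzymes differed by a median of 0.06 on the log2 scale. Of the 8 regulators and transporters, Insig2 alone had E434 and E433 as its lowest libraries. These are descriptions of single libraries, noticed in the values and not tested.

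The order of the libraries was the same for 17 enzymes with DESeq2's size factors and with RSEM expected counts, and held for 14 in the deposited TPM (levels per transcript length), where Acat2, Nsdhl, Ebp and Tm7sf2 had another low pair. All 12 keratinocyte markers also had E434 and E433 lowest, and chondrocyte markers ran the other way. The sizes differed, as keratinocyte markers summed to 23.3 CPM in E434 and 3524 CPM in E433, against 586 and 594 CPM for the enzymes. In E423 and E440 they summed to 28360 and 28561 CPM, against 6226 and 7119 CPM in E420 and E435, where the enzymes lay from 815 to 826 CPM in all of these libraries. The part of these cell types in the levels of the enzymes was not tested, and in RNA of a whole tissue fewer cells of a type and less RNA per cell cannot be told apart.

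**Figure D2:**
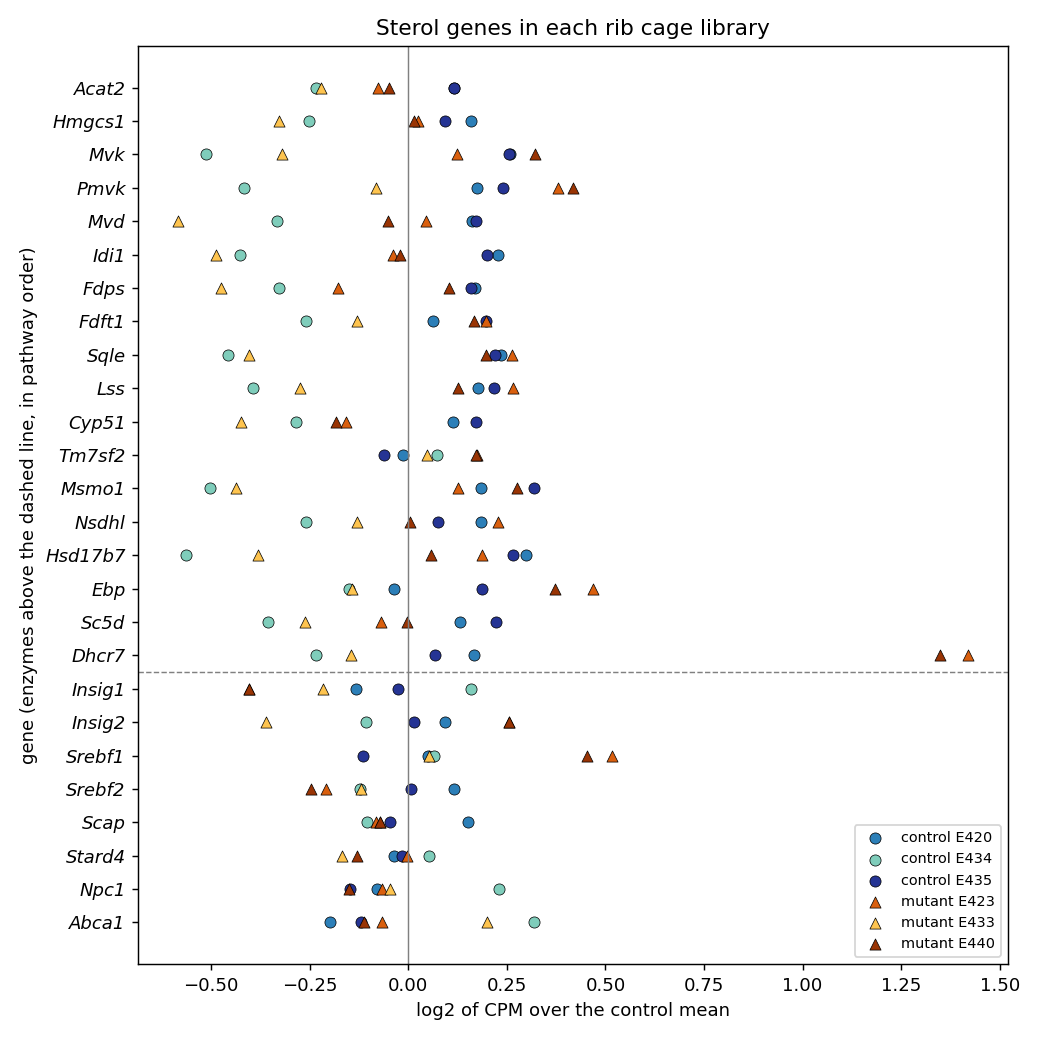
Log2 of each library's CPM over the mean of the 3 controls (horizontal axis) for the 26 genes (vertical axis, enzymes in pathway order above the dashed line), with circles for controls and triangles for mutants. The pale symbols of E434 and E433 lie to the left in all enzymes but Tm7sf2, and Dhcr7 in E423 and E440 lies farthest to the right, at 64.2 and 61.0 CPM.

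The first arm of the pathway, from acetyl-CoA to farnesyl diphosphate, was represented by 7 enzymes, with log2 fold changes between -0.20 and 0.23 and adjusted edgeR p-values of 0.734 or more. Hmgcs1, which condenses acetyl-CoA with acetoacetyl-CoA, was at 152, 115 and 146 CPM in the controls and at 139, 109 and 138 CPM in the mutants. Its level in both low libraries was thus below that of the other 4, and its groups overlapped (log2 fold change -0.10, SE 0.15). Mvk, the kinase that phosphorylates mevalonate, had a wider gap, with 41.2, 24.1 and 41.2 CPM in controls and 37.5, 27.6 and 43.1 CPM in mutants. Idi1, the isomerase that makes the 2 isoprenoid building blocks interchangeable, was at 50.8, 32.3 and 49.9 CPM in controls and 42.2, 30.95 and 42.8 CPM in mutants. Leaving aside E434 and E433, Idi1 was lower in both remaining mutants than in both remaining controls, a state of 31.5% of all genes. The same held for Hmgcs1, Mvd and Fdps, and for Acat2, the thiolase that makes acetoacetyl-CoA, at 44.2 and 45.1 CPM against 50.5 and 50.5 CPM. Pmvk, the next kinase, ran the other way, at 39.9 and 41.0 CPM against 34.6 and 36.2 CPM, a state of 31.2% of all genes. Mvd, the decarboxylase that ends the mevalonate steps, ranged from 14.9 to 25.2 CPM over the 6 libraries.

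Fdps, which builds farnesyl diphosphate, is hard to read in the count table. It had 6.17 to 9.70 CPM there, but its deposited RSEM level of 98.3 ± 14.1 TPM in controls was the highest per length of all 26 members (SD, n = 3). Its counts were 0.225 of its expected counts, whereas the ratio had a median of 2.05 over genes with at least 1000 expected counts. The count table leaves out reads that align to several places and the RSEM files share them out, and 26.7% of the exon bases of Fdps also belong to the annotated gene Gm43738 on the same strand, so both values are uncertain. The ratio of counts to expected counts was also below that median for Idi1, at 1.19, and for Hmgcs1, at 1.63. On the other strand, Gm48574 overlaps 9.2% of the exon bases of Idi1, and Gm48342 overlaps 12.1% of those of Hmgcs1.

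The middle steps, from farnesyl diphosphate to lanosterol, had 3 enzymes with hardly any difference between groups, at log2 fold changes of 0.07 for Fdft1, 0.01 for Sqle and 0.03 for Lss. Sqle, the epoxidase that commits squalene to sterols, was at 90.4, 55.9 and 89.5 CPM in controls and at 92.1, 58.0 and 88.0 CPM in mutants. The control and mutant values covered nearly the same range, with E434 and E433 low by a like amount. Lss, the cyclase that closes the first sterol ring system, was at 29.4, 19.8 and 30.3 CPM and at 31.3, 21.5 and 28.4 CPM. Fdft1, squalene synthase, ranged from 40.1 to 55.1 CPM, and 18.8% of its exon bases overlap Ctsb on the other strand, which counting without strand cannot separate.

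Among the 8 enzymes from lanosterol to cholesterol, 6 showed the same drop in E434 and E433 with overlapping groups and log2 fold changes between -0.26 and 0.25. Hsd17b7, a ketosteroid reductase, had the deepest drop in E434, at 25.2, 13.8 and 24.6 CPM in controls against 23.3, 15.7 and 21.3 CPM in mutants. Msmo1, the methylsterol oxidase, was at 47.0, 29.1 and 51.6 CPM and at 45.1, 30.5 and 49.996 CPM. Cyp51, the lanosterol demethylase, was at 85.6, 65.0 and 89.1 CPM in controls and 70.9, 58.9 and 69.7 CPM in mutants. E423 and E440 were between the low and the high controls for Cyp51, whose log2 fold change of -0.26 (SE 0.14) had an adjusted edgeR p of 0.549. Ebp, the sterol isomerase, was at 14.5, 13.4 and 16.99 CPM in controls and at 20.7, 13.5 and 19.3 CPM in mutants. Nsdhl, the decarboxylating dehydrogenase, ranged from 14.6 to 20.5 CPM, and Sc5d, the sterol desaturase, from 27.5 to 41.1 CPM.

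Tm7sf2, a sterol reductase that acts on the product of Cyp51, was the enzyme that did not share the drop. It was at 26.5, 28.1 and 25.6 CPM in controls and at 30.1, 27.6 and 30.1 CPM in mutants. Its highest and lowest libraries differed by 1.18-fold, against 1.28-fold to 3.16-fold for the other 17 enzymes. Vps51 lies on the same strand and shares 12.1% of the exon bases of Tm7sf2.

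Dhcr7, at chromosome 7, 143823145 to 143848410 (GRCm38, plus strand), encodes the reductase that turns 7-dehydrocholesterol, also the precursor of vitamin D in skin, into cholesterol. It was at 26.9, 20.3 and 25.04 CPM in the controls and at 64.2, 21.6 and 61.0 CPM in the mutants. A pair of mutants was thus above all controls, while E433 lay within the range of the controls. The log2 fold change was 1.02 (SE 0.39), with an unadjusted p of 0.037 and an adjusted p of 0.448 by edgeR's quasi-likelihood test, and an adjusted p of 0.0914 by DESeq2's Wald test on the counts and 0.116 on the RSEM expected counts. Without E433 the log2 fold change was 1.38, with an adjusted edgeR p of 0.0081, but the mutants left were then the closest pair of libraries. In the other 5 fits that left out 1 library the unadjusted edgeR p was between 0.070 and 0.120, and with the close libraries summed the log2 fold change was 0.87 (unadjusted edgeR p of 0.179). The libraries with high Dhcr7 were those that had the highest Krt5 and Adipoq (897 CPM or more and 50.3 CPM or more), and 10 of 12 keratinocyte and 10 of 10 adipocyte markers had E423 and E440 as their highest libraries. Among the members, 4 of 18 enzymes and 2 of 8 regulators and transporters had that order too, and its share over all genes is not given here. In sum, skeletal muscle markers were also highest in E423 and E440, at 26821 and 26070 CPM against 11196 to 19314 CPM elsewhere. Of these 8 genes, 5 had E423 and E440 as their highest libraries, 1 had E434 and E433, and 2 had a log2 fold change below 0. Erythroid markers in sum were lowest in E423 and E440, at 4304 and 4381 CPM against 8733 to 12993 CPM. The part of these cell types in the level of Dhcr7 was not tested.

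Among the genes of sterol sensing, Insig1 and Srebf1 differed most. Insig1, at chromosome 5, 28071363 to 28078662 (plus strand), was at 53.0, 64.8 and 57.0 CPM in the controls and at 43.8, 49.9 and 43.8 CPM in the mutants. In CPM all 3 mutants were below all 3 controls, and E434 and E433 were the highest library of their groups, the reverse of the enzymes. In deposited TPM the groups of Insig1 overlapped, with mutant E433 at 32.7 TPM and control E420 at 30.9 TPM. The log2 fold change was -0.34 (SE 0.10), with an unadjusted p of 0.0139 and an adjusted p of 0.390 by edgeR. All 8 osteoblast markers also had the mutants below the controls, at 7863 to 8259 CPM in sum against 11035 to 16128 CPM, and their part in the level of Insig1 was not tested. Srebf1, at chromosome 11, 60199089 to 60222581 (minus strand), which encodes the factor that favors fatty acid genes, was at 73.8, 74.6 and 65.8 CPM in controls and at 102, 74.0 and 97.7 CPM in mutants. As with Dhcr7, E423 and E440 were above all controls and E433 was not. Its log2 fold change was 0.35 (SE 0.13), with an unadjusted p of 0.0361 and an adjusted p of 0.445 by edgeR. Without E433, Insig1 (log2 fold change -0.41, adjusted p 0.0790), Srebf1 (0.49, adjusted p 0.0298) and Dhcr7 were the 3 members that passed the adjusted limit of 0.1 by edgeR, where 13.4% of all genes passed. In the other 5 fits that left out 1 library, the unadjusted edgeR p of Srebf1 was between 0.053 and 0.119 and that of Insig1 between 0.0129 and 0.0498, and with the close libraries summed they were 0.217 and 0.0642.

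Srebf2, which encodes the factor that favors sterol genes, had the highest CPM of the 26 members, at 202, 171 and 187 CPM in controls and at 161, 171 and 157 CPM in mutants. E434 and E433 had the same level, and E423 and E440 were below all controls (log2 fold change -0.19, SE 0.09). Insig2 was at 46.8, 40.7 and 44.4 CPM in controls and at 52.4, 34.2 and 52.5 CPM in mutants, so that Insig1 and Insig2, which share a function, were ordered differently across the mutants. Scap lay between 44.9 and 53.7 CPM in all libraries. A further 13.2% of its exon bases overlap 5830462I19Rik on the other strand.

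The 3 transport genes had log2 fold changes of -0.10 (Stard4), -0.10 (Npc1) and -0.01 (Abca1), with overlapping groups. Stard4, a carrier of sterol through the cytosol, ranged from 49.9 to 58.1 CPM. Npc1, which moves cholesterol out of lysosomes, was at 28.3 CPM in E434 and from 21.7 to 23.3 CPM elsewhere. Abca1, which exports cholesterol and is raised by sterol excess through the LXR receptors, was at 40.9, 58.6 and 43.2 CPM in controls and at 44.8, 53.9 and 43.4 CPM in mutants. Its highest libraries were E434 and E433, the lowest ones for the enzymes.

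With E434 and E433 both left out, 14 members passed an adjusted edgeR p of 0.1, 8 lower and 6 higher in mutants, where 18.3% of all genes tested were lower and 19.4% higher. At an unadjusted p under 0.05 there were 9 lower and 6 higher members (19.5% and 20.3% of all genes), and 11 lower and 7 higher members had no overlap between groups (31.5% and 31.2% of all genes). The lower ones at the adjusted limit were Acat2 (log2 fold change -0.18), Hmgcs1 (-0.10), Mvd (-0.17), Idi1 (-0.24), Cyp51 (-0.31), Sc5d (-0.21), Insig1 (-0.33) and Srebf2 (-0.29). Those higher were Pmvk (0.19), Tm7sf2 (0.21), Ebp (0.34), Insig2 (0.20), Srebf1 (0.52) and Dhcr7 (1.27). Steps next to each other in the pathway thus differed in opposite directions, as Sc5d and Dhcr7 did, and the summed enzyme level of E423 and E440 was 0.995 of that of E420 and E435. The spread in this comparison of 2 against 2 comes from the closest pairs of libraries, and 37.6% of all genes passed, so these calls rest on less variation than 3 embryos per group showed.

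**Figure D3:**
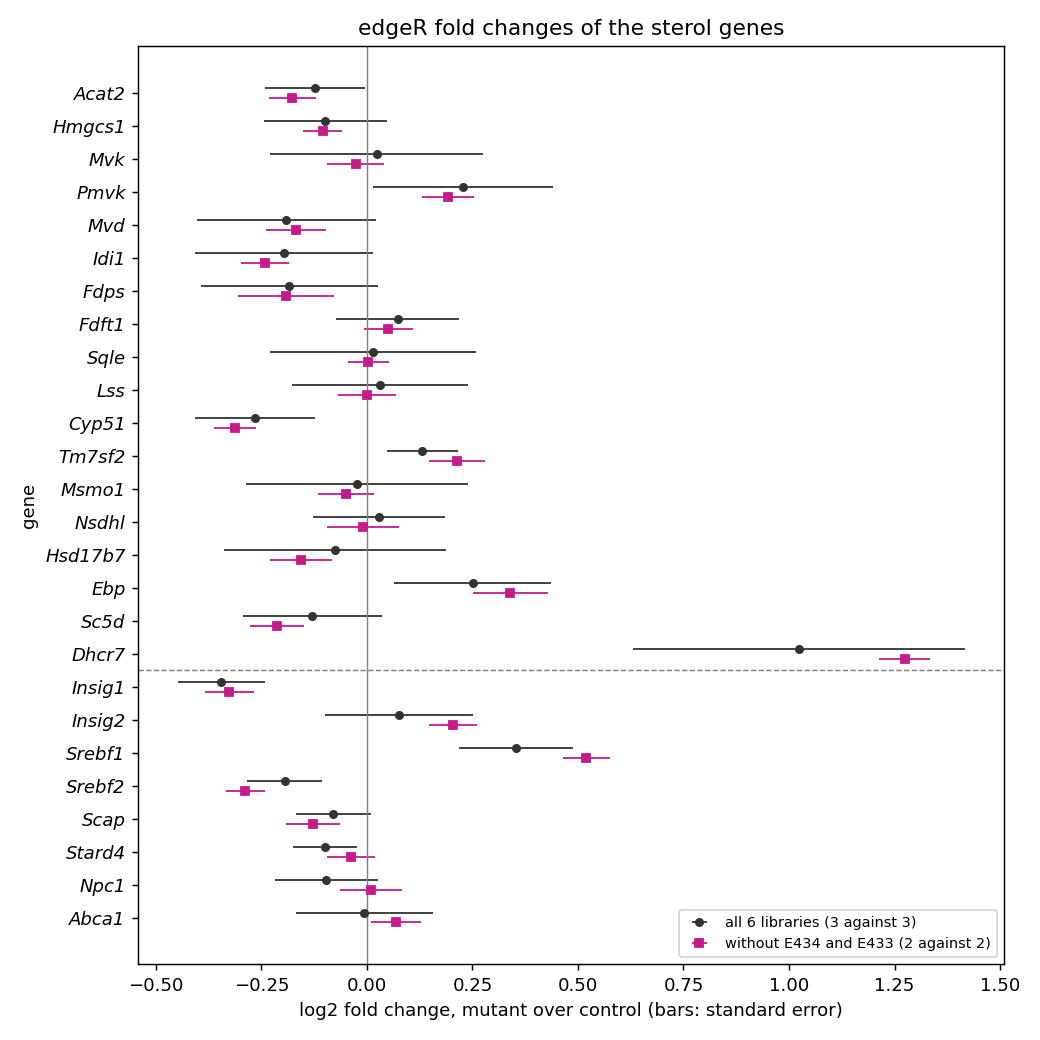
Log2 fold change of mutants over controls (horizontal axis) with its standard error for each of the 26 genes (vertical axis), from all 6 libraries (circles) and without E434 and E433 (squares). Dhcr7 is at 1.02 and 1.27, the other members lie between -0.34 and 0.52, and the error bars are shorter in the comparison of 2 against 2.

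In deposited TPM, which allow levels of different genes to be compared, the control means were 98.3 ± 14.1 for Fdps, 78.9 ± 10.4 for Hmgcs1 and 61.7 ± 5.56 for Srebf2 (SD, n = 3). Pmvk followed at 40.2 ± 8.47 TPM and Sqle at 39.4 ± 9.70 TPM, which did not differ beyond their spread. At the lower end were Lss at 10.02 ± 2.62 TPM, Npc1 at 8.65 ± 1.40 TPM, Hsd17b7 at 7.34 ± 2.22 TPM and Abca1 at 6.84 ± 1.90 TPM, again with overlapping spreads. Srebf2 exceeded Srebf1 (34.2 ± 6.88 TPM), while Insig1 (34.3 ± 4.28 TPM) and Insig2 (35.8 ± 3.92 TPM) did not differ beyond their spread. In mutants the leading members kept this order, with Fdps at 82.1 ± 5.39 TPM, Hmgcs1 at 71.4 ± 4.96 TPM and Srebf2 at 52.6 ± 6.33 TPM.

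**Figure D4:**
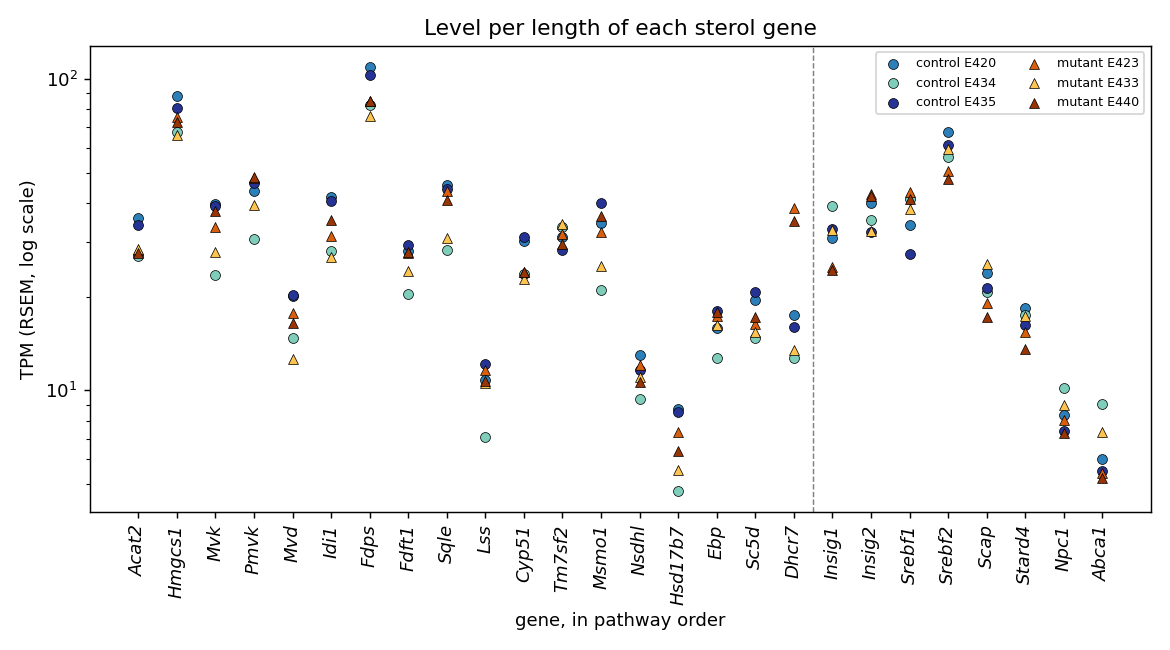
TPM of each of the 26 genes (vertical axis, log scale) in pathway order (horizontal axis), with 1 symbol per library, circles for controls and triangles for mutants. Fdps and Hmgcs1 lead the enzymes, and Dhcr7 in mutants E423 and E440 stands above its other libraries, with a mutant mean of 28.9 against 15.4 TPM in controls.

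The promoters of the members were read to show what sequence they share. RefSeq windows from 250 bases before to 50 bases after the start, on GRCm38.p6, were found for 21 of the 26 members, 15 of them enzymes. CCAAT, the box bound by the factor NF-Y, which works with SREBP factors at many sterol genes, was found on either strand in 18 of the 21 members and 14 of the 15 enzymes, against 41.1% of 27025 genes. The sterol element TCACNCCAC was found in Hmgcs1 alone, against 1.44% of genes, and CACGTG, which E-box factors bind, in 6 of the 21, against 8.09%. Acat2, Abca1 and Scap were the matched members without CCAAT. Both strands were searched for each motif, and no marked motifs overlap in the windows printed. A match is only a description of the sequence, and Tm7sf2, which did not share the order of the other enzymes, also held CCAAT.

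Shown here are the 250 bases before the start for the enzyme with the sterol element (Hmgcs1), for enzymes with several CCAAT boxes and a large drop in E434 and E433 (Mvk and Msmo1), for the enzyme without the drop (Tm7sf2), and for the members that differed most between groups (Dhcr7 and Insig1). The windows are chr13:119690101-119690350 on the plus strand for Hmgcs1, chr5:114444019-114444268 on the plus strand for Mvk, chr8:64733579-64733828 on the minus strand for Msmo1, chr19:6067851-6068100 on the minus strand for Tm7sf2, chr7:143829964-143830213 on the plus strand for Dhcr7 and chr5:28071162-28071411 on the plus strand for Insig1. Dhcr7 has 3 RefSeq windows, and the one with CCAAT is shown. Sequences run 5′ to 3′ on the gene's strand, and capitals mark CCAAT or its reverse complement ATTGG and, in Hmgcs1, the sterol element.
Hmgcs1: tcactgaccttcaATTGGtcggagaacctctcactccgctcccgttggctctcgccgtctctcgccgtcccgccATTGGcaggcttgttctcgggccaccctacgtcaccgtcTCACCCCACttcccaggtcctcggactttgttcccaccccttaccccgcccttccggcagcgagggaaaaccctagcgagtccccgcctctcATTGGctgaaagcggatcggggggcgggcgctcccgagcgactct
Mvk: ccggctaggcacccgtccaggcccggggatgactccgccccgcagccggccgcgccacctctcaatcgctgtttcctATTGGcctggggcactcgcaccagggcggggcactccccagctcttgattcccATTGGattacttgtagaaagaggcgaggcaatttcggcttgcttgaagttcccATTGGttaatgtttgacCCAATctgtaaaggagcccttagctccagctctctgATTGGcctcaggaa
Msmo1: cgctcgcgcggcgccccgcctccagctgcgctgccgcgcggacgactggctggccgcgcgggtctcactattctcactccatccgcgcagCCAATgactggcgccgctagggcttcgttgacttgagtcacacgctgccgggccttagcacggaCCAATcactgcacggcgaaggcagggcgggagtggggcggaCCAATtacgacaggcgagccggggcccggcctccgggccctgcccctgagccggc
Tm7sf2: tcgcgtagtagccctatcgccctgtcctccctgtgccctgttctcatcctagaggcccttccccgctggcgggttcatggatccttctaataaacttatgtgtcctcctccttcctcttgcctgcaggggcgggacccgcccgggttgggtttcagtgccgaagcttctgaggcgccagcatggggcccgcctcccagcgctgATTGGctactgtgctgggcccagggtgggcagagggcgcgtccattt
Dhcr7: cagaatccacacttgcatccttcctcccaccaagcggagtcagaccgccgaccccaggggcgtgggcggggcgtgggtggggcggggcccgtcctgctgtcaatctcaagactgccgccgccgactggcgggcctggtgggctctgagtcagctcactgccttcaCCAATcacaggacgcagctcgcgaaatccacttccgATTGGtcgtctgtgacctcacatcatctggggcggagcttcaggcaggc
Insig1: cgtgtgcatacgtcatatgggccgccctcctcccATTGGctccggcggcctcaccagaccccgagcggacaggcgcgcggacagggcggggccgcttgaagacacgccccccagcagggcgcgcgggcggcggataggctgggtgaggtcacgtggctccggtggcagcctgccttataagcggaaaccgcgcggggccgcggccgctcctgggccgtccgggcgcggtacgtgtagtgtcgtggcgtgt
Within these bases Mvk held 5 CCAAT boxes, Hmgcs1 and Msmo1 held 3 each, Dhcr7 held 2, and Tm7sf2 and Insig1 held 1 each.

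Other genes of the pathway were taken from 7 written lists, of which 68 of 69 genes were tested. None of the 68 passed an adjusted edgeR p of 0.1. At an unadjusted edgeR p under 0.05 there were 11, where 10.6% of all genes were, and the median log2 fold change was -0.03. In CPM, groups did not overlap in 6 with mutants lower and 8 with mutants higher, beside the 8.21% and 6.81% of all genes given above. DESeq2 called 4 (Coq2, Cyp27a1, Thrsp and Pnpla3, all higher in mutants) on the counts, where 2.15% of all genes were called higher, but on the expected counts Cyp27a1 and Pnpla3 had adjusted p-values of 0.121 and 0.140. E434 and E433 were the lowest libraries of 11 of the 68, near the 16.4% of all genes. In the list closest to the enzymes, of other synthesis and uptake genes, this held for 4 of 11, among them Por, the electron donor of Cyp51 and Sqle, and Aacs, which activates acetoacetate. It did not hold for Lbr, a sterol reductase with the activity of Tm7sf2, or for Erg28, a scaffold of the demethylation enzymes, both lowest in E423 and E440. The drop of the 17 enzymes was thus not shared by every gene of sterol synthesis.

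Of 6 genes of the LXR receptors and sterol export, 2 (Nr1h3 and Abcg1) had all mutants above all controls in CPM, a state of 6.81% of all genes. The median log2 fold change of the 6 genes was 0.13. Nr1h3, which encodes LXR alpha, was at 1.78, 2.14 and 1.94 CPM in the controls and at 4.55, 2.20 and 3.86 CPM in the mutants. Its lowest mutant, E433, held 95 counts and its highest control, E434, held 97, so their order rests on the scaling. Abcg1, a cholesterol exporter, was at 9.93, 8.87 and 9.52 CPM in controls and at 16.1, 10.4 and 13.6 CPM in mutants. Both were highest in E423 and E440, with adjusted edgeR p-values of 0.412 and 0.423. Nr1h2, which encodes LXR beta, was at 34.7 to 36.8 CPM in controls and 36.5 to 44.4 CPM in mutants, and Mylip, a target of LXR, at 24.3 to 27.5 CPM and 24.8 to 28.7 CPM, both with overlapping groups. Abcg5 and Abcg8, a pair of export subunits, were at 0.495 CPM or less in every library, with overlapping groups and log2 fold changes of -0.28 and -1.99. Abca1 did not share the order of Nr1h3 and Abcg1. Of the oxysterol enzymes, Cyp27a1 was at 3.76 to 5.70 CPM in mutants against 1.67 to 2.80 CPM in controls (log2 fold change 1.01, SE 0.25). Its adjusted p was 0.354 by edgeR, 0.0158 by DESeq2 and 0.121 by DESeq2 on expected counts. Cyp7b1 was at 2.54 to 3.78 CPM in mutants against 4.06 to 4.58 CPM in controls (log2 fold change -0.53, SE 0.20). Its groups overlapped in deposited TPM, with 2.69 TPM in mutant E433 and 2.67 TPM in control E434. Of 5 oxysterol genes tested, 1 had mutants apart and higher in CPM and 1 apart and lower, states of 6.81% and 8.21% of all genes.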

How the data were processed

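The authors sequenced RNA of rib cages from 6 embryos at 16.5 dpc, 3 per group, and groups were taken from the genotype labels. The authors deposited raw counts per gene, made with HISAT2 2.1.0 on GRCm38 and featureCounts 1.6.0 in which both ends of a fragment add to the count, reads of either strand are taken and reads with several alignments are dropped. Expected counts and TPM were deposited as well, from STAR 2.7.6 and RSEM 1.2.31. Tables of the authors' own DESeq2 comparisons hold fold changes, p-values and 12 further columns of per-sample values, and were not used.

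Symbols were taken from a GENCODE annotation of the same build. The 26596 genes with at least 10 summed counts entered edgeR 4.0.16 in R 4.3.3 (TMM scaling, quasi-likelihood test), with Benjamini-Hochberg adjustment over all of them. Groups of 3 cannot give a 2-sided exact permutation p below 0.1. Library differences used log2 of CPM plus 0.1. Alternatives were DESeq2 1.42.0 (size factors, Wald test), a robust fit, other count filters, expected counts rounded to whole numbers, leaving out libraries and summing the close ones. The order of the libraries under other scalings was added after the values were seen. All members, the listed genes, Foxc1, Foxc2 and genes overlapping members could be named. Members and lists were chosen with earlier results of these data known. Steps were tested on simulated data. The labels give each library its own embryo number, but E423 and E440 differ by little more than counting noise. Some listed genes that count in the totals are not reported by name here. Protein sequences were not analysed here.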

Additional observations from a re-analysis of the deposited data

How the results depend on the processing

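No paired analysis was run because the labels do not say which embryos shared a litter. The methods state that the embryos compared were littermates, so a pairing by litter was not taken into account. The count of members past an adjusted p of 0.1 was 0 by edgeR, 1 by DESeq2's Wald test and 14 without E434 and E433, and ran from 0 to 3 when each library was left out, with 3 (Dhcr7, Srebf1 and Insig1) without E433, where 13.4% of all genes passed. Members with an unadjusted p under 0.05 numbered 1 lower and 2 higher, 1 higher with the robust fit, 9 lower and 6 higher without E434 and E433, and 0 in either direction with the close libraries summed. Leaving out each library gave 1 to 5 lower and 0 to 4 higher, the 5 without E434 (4.26% of all genes) and the 4 without E433 (12.5%). Members with groups apart numbered 1 lower and 0 higher, 2 lower without a count filter, 3 lower with the close libraries summed, and 11 lower and 7 higher without E434 and E433. Leaving out each library gave 1 to 11 lower (11 without E434, 15.3% of all genes) and 0 to 6 higher (6 without E433, 24.3%). The members' median log2 fold change ran from -0.16 without E434 to 0.05 without E433.

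Of 208 values of single members under the other alternatives, 186 kept their direction and side of the limit, 15 came to pass it and 7 changed sign. Abca1, at -0.01, was at 0.00029 with DESeq2's size factors, 0.00020 by its Wald test, 0.0038 with expected counts and 0.070 without E434 and E433. In that last setting Mvk was at -0.027, Nsdhl at -0.0094 and Npc1 at 0.010. Of 156 values with 1 library left out, 127 kept their direction and side, 3 came to pass and 26, in 12 genes, changed sign. Their ranges were -0.21 to 0.013 for Hmgcs1, -0.19 to 0.19 for Mvk, -0.046 to 0.17 for Fdft1, -0.18 to 0.20 for Sqle, -0.14 to 0.18 for Lss, -0.24 to 0.17 for Msmo1, -0.090 to 0.13 for Nsdhl, -0.31 to 0.079 for Hsd17b7, -0.023 to 0.26 for Insig2, -0.13 to 0.0021 for Scap, -0.17 to 0.028 for Npc1 and -0.10 to 0.17 for Abca1. The causes were not tested. Spreads with E434 and E433 left out come from close pairs. The member lowest in counts, Fdps, was at 6.17 CPM or more, and the part of depth was not tested.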

Other observations

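Of 11 genes tested in the isoprenoid branch, which leaves the pathway at farnesyl diphosphate, 3 (Coq2, Pdss1 and Pdss2) had all mutants above all controls, a state of 6.81% of all genes. They are described because of these values, no list of coenzyme Q genes having been written, and 1 of them was called by DESeq2. Coq2, which joins the isoprenoid tail to the ring of coenzyme Q, was at 21.7, 20.7 and 22.9 CPM in the controls and at 33.3, 28.5 and 32.5 CPM in the mutants. Its log2 fold change was 0.53 (SE 0.10), with an adjusted p of 0.212 by edgeR, 0.00079 by DESeq2 and 0.0021 by DESeq2 on expected counts. Pdss1 and Pdss2, the subunits of the enzyme that builds the tail, were at 10.4 to 14.9 CPM and 10.1 to 12.6 CPM in mutants against 8.58 to 9.96 CPM and 8.84 to 9.70 CPM in controls, with adjusted p-values of 0.428 and 0.472 by edgeR and 0.162 and 0.343 by DESeq2.

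Targets of Srebf1 in fatty acid synthesis did not share a direction. Of 14 genes tested, none passed an adjusted edgeR p of 0.1, and DESeq2 called Thrsp and Pnpla3 on the counts. Thrsp, which promotes lipid synthesis, was at 6.67, 8.82 and 6.80 CPM in controls and at 38.2, 13.1 and 35.2 CPM in mutants, with an adjusted p of 0.260 by edgeR and 1.2e-05 by DESeq2. Pnpla3, a lipase gene of fat and liver, was at 0.305, 0.0662 and 0.536 CPM in controls and at 2.79, 0.371 and 2.93 CPM in mutants, with an adjusted p of 0.416 by edgeR, 0.0324 by DESeq2 and 0.140 by DESeq2 on expected counts. E423 and E440, the libraries with the highest adipocyte markers, were highest for both genes, and the part of fat in these levels was not tested. Fasn, fatty acid synthase, was at 114 to 130 CPM in controls and 111 to 126 CPM in mutants, and Elovl5, an elongase, at 55.2 to 58.6 CPM in controls and 39.8 to 50.7 CPM in mutants.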
